A study of Mus musculus with 21 samples.

Results

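The genes described here are 10 that are commonly read as an epithelial to mesenchymal switch. They were chosen by symbol: 5 epithelial genes (Cdh1, Epcam, Krt8, Krt18 and Cldn6) and 5 mesenchymal genes (Vim, Cdh2, Snai1, Zeb1 and Zeb2). All 10 were found once in each expression table, among 27968 genes of sorted cells and 22899 genes of total cocultured cells. RNA-seq had been performed on 21 libraries, 3 in each of 7 groups. The 15 sorted-cell libraries came from mESC (mouse embryonic stem cells of the 129/ola strain, grown on fibroblast feeders and sorted with an antibody to SSEA-1), from D5-LSKCD201+ and D5-LSKCD201- cells, from FL-LSKCD201+ cells and from BM-LSKCD201+ cells. LSK means lineage negative, Sca-1 positive and c-kit positive, a surface phenotype that holds hematopoietic stem and progenitor cells in the mouse, and CD201 is the endothelial protein C receptor. The D5 cells were of the 129/ola strain as well and were taken on day 5 after colonies formed over 6 to 8 days in a 3D self-assembling peptide system had been moved onto OP9 cells, a mouse stromal line treated with mitomycin C, with stem cell factor, IL-3 and Flt3 ligand. FL-LSKCD201+ cells came from the fetal liver of midgestation C57BL/6 embryos and BM-LSKCD201+ cells from the bone marrow of C57BL/6 mice 6 to 8 weeks old. The 6 other libraries held total cells on day 5 of the second culture stage, on OP9 (3D+OP9) or on 0.1% gelatin without stromal cells (3D+0.1% gelatin), again of the 129/ola strain.

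In an epithelium, E-cadherin (Cdh1) joins neighbouring cells at adherens junctions and is anchored to actin through catenins, EpCAM (Epcam) is a second adhesion molecule, claudin-6 (Cldn6) sits in tight junctions, and keratins 8 and 18 (Krt8 and Krt18) pair to form the intermediate filaments of simple epithelia. Mesenchymal cells carry vimentin (Vim) filaments and often N-cadherin (Cdh2) instead, and the zinc finger proteins Snail (Snai1), Zeb1 and Zeb2 bind E-box sequences and repress epithelial genes, Cdh1 among them. Pluripotent cells in culture are epithelial in this sense and carry Cdh1 and Epcam, the epiblast loses them on its way to mesoderm, and blood cells form later from an endothelium, which is held together by another cadherin, VE-cadherin (Cdh5). Zeb2 is also required in the blood lineages themselves.

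Of the 10 genes, 7 had an entry in the RefSeq promoter table (assembly GRCm38.p6): Epcam, Krt8, Krt18, Cldn6, Vim, Snai1 and Zeb2. The bases before the start are given for Epcam, Krt8, Krt18 and Cldn6, which differed most between the sorted populations among those 7. The letters searched were CACCTG, an E-box that Snail and Zeb proteins are known to bind, and its reverse complement CAGGTG, over the 250 bases before each start. Capitals mark each match, and each sequence runs from 5′ to 3′ on the strand of the gene.
Epcam, chr17:87635729-87635978, plus strand: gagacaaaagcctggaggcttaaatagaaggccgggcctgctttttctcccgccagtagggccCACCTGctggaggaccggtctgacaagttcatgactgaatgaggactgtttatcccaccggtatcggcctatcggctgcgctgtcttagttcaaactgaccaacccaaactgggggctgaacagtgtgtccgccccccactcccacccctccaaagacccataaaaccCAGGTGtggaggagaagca
Krt8, chr15:102004343-102004592, minus strand: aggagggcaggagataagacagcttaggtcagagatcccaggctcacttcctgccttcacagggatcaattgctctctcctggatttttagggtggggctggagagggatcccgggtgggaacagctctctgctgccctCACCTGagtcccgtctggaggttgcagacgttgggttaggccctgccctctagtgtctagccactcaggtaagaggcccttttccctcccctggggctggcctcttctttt
Krt18, chr15:102027966-102028215, plus strand: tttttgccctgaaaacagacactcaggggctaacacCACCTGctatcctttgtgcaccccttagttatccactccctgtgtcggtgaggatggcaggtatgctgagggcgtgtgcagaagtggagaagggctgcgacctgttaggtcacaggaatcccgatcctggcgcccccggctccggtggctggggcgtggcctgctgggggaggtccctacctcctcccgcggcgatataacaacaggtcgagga
Cldn6, chr17:23679115-23679364, plus strand: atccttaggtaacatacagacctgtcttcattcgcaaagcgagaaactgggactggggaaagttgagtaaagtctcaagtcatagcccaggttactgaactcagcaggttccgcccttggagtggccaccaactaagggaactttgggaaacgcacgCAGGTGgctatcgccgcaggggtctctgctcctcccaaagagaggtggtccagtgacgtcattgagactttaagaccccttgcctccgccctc
Counted back from the start, where −1 is the base before it, Epcam held 2 matches that began at −187 and −19. Krt8, Krt18 and Cldn6 held 1 each, at −111, −214 and −93. Snai1 held 1 match, and neither Vim nor any of the 4 listed promoters of Zeb2 held a match. Of all 32851 promoters in the table, 17.2% held a match and 2.06% held 2 or more. A match describes these letters and not a bound site, and other proteins bind E-boxes with the same letters.

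In the sorted-cell table the genes are given by Ensembl identifier and GRCm38 locus, and each locus agrees in chromosome with GENCODE. Cdh1 (ENSMUSG00000000303) lies at chr8:106603351-106670246, Epcam (ENSMUSG00000045394) at chr17:87635979-87651106 and Cldn6 (ENSMUSG00000023906) at chr17:23679365-23682446. The keratin partners are neighbours on chromosome 15, Krt8 (ENSMUSG00000049382) at chr15:101996711-102004342 and Krt18 (ENSMUSG00000023043) at chr15:102028216-102032026. Vim (ENSMUSG00000026728), Snai1 (ENSMUSG00000042821) and Zeb2 (ENSMUSG00000026872) lie on chromosome 2, and Cdh2 (ENSMUSG00000024304) and Zeb1 (ENSMUSG00000024238) on chromosome 18. All 10 are protein coding, and the values are for whole genes, exons summed. The locus listed for Zeb1 was shared with 4 other genes and that of Zeb2 with its antisense gene Zeb2os. The study does not state that strand was used in counting, so reads of overlapping genes could not be told apart there.

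Expression was given as FPKM, a fragment count divided by transcript length and by the mapped total of the library, so levels can be set side by side between genes within a table. The sequencing depth itself was not given. In 4 groups a pair of libraries was far closer than either was to the remaining library. The root mean square log2 difference was at most 0.168 within these pairs and at least 0.336 to the remaining library. The latter was replicate 2 of D5-LSKCD201-, replicate 1 of FL-LSKCD201+, replicate 1 of BM-LSKCD201+ and replicate 3 of 3D+OP9. Between the close pairs 0.0553% to 0.147% of genes were at least 2-fold apart, and between them and the remaining library 1.51% to 4.07% were. The study calls the sorted-cell libraries biological replicates. Within mESC and within D5-LSKCD201+ all 3 libraries lay nearly as close as these pairs, at 0.172 to 0.183 and 0.162 to 0.200. The labels do not say whether a close pair, or the libraries of mESC or D5-LSKCD201+, are repeats of 1 sample. In that case n would be under 3 in that group. With each close pair averaged as 1 sample, the number of the 10 genes called was equal to that given for all 3 libraries in each of the 6 comparisons that hold such a pair. The mESC and D5-LSKCD201+ libraries were not averaged. The labelled cell types were checked against marker genes. Summed over 7 pluripotency genes (Pou5f1, Nanog, Sox2, Esrrb, Zfp42, Dppa5a and Tdgf1), FPKM came to between 6299 and 6843 in mESC, 3481 and 3909 in D5-LSKCD201- cells, 22.7 and 30.4 in D5-LSKCD201+, 5.35 and 10.1 in FL-LSKCD201+ and 0 and 10.2 in BM-LSKCD201+, and none of the 7 was under 1 FPKM in the D5-LSKCD201- libraries. Over 8 hematopoietic genes the sum was 584 to 669.8 in FL-LSKCD201+ and 884 to 899 in BM-LSKCD201+, but 151 to 158 in D5-LSKCD201+ and 26.5 to 29.3 in D5-LSKCD201-. In the D5-LSKCD201+ libraries 4 of the 8 were under 1 FPKM, Ptprc, the CD45 gene, among them at a mean of 0.409 FPKM against 66.8 in BM-LSKCD201+. Over 8 endothelial genes the D5-LSKCD201+ sum was 1665 to 1697, against 76.1 to 82.6 in D5-LSKCD201- and 179 to 229 in FL-LSKCD201+. The D5-LSKCD201+ libraries thus lacked several defining genes of blood cells and were led by endothelial genes, and their name is used here for the sorting gate only.

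**Figure D1:**
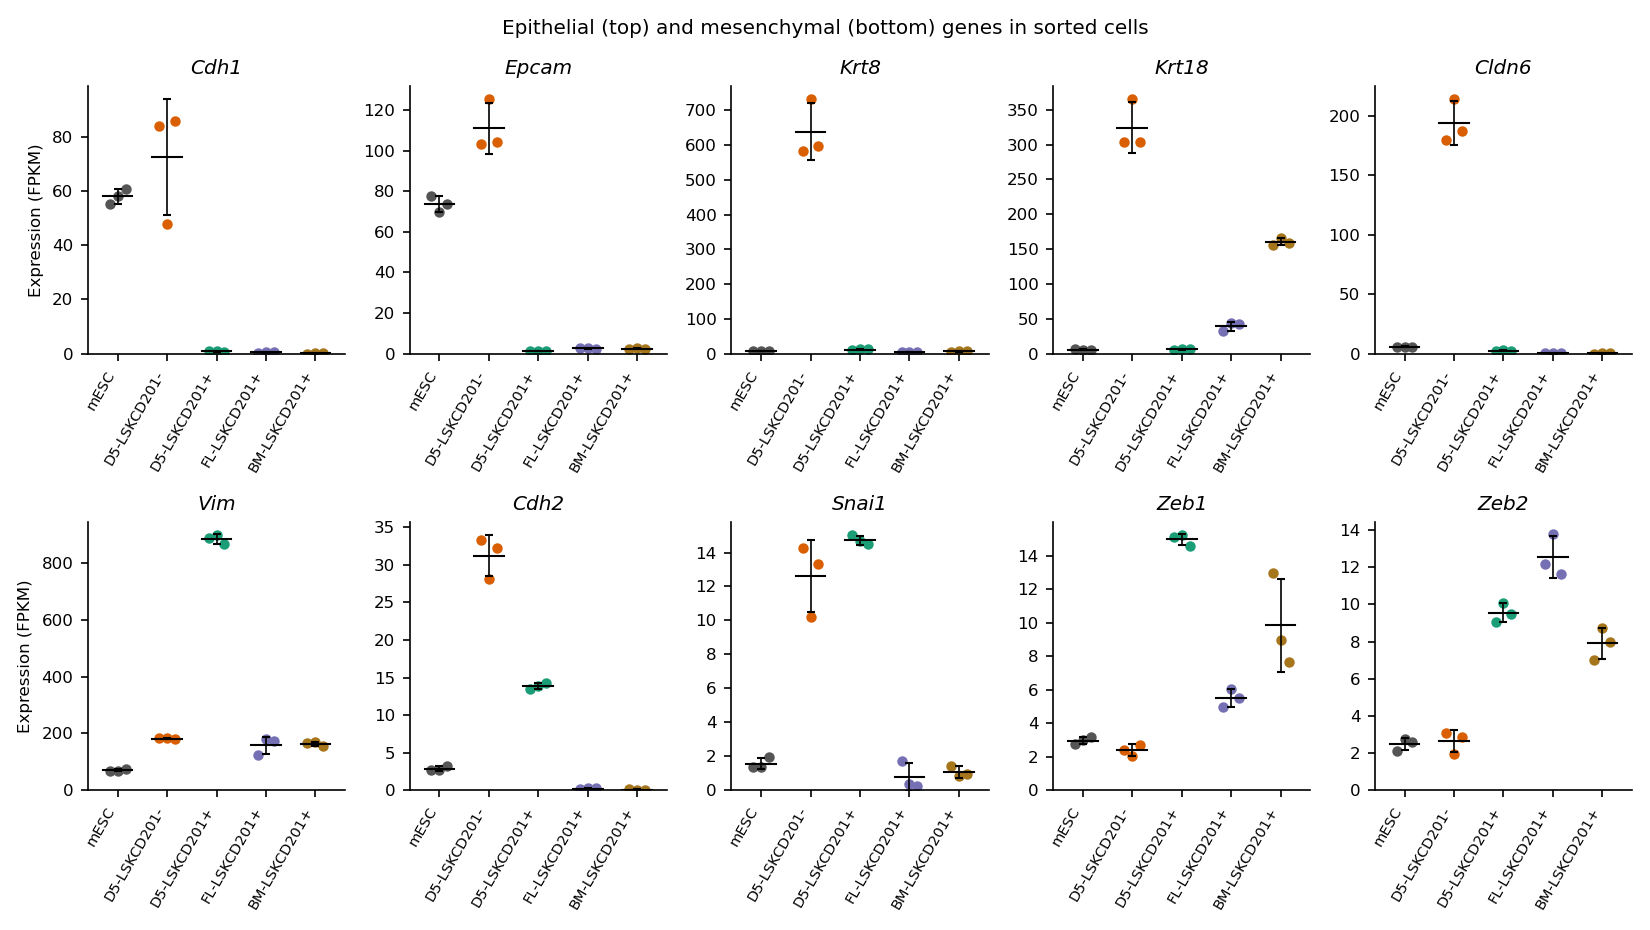
Expression (FPKM, linear axes from 0) of the 5 epithelial genes (top row) and the 5 mesenchymal genes (bottom row) in the 15 sorted-cell libraries. Each point is a library, the horizontal line is the mean and the bar is the SD of 3 replicates. Cdh1 and Epcam are high in mESC and D5-LSKCD201- and near 0 elsewhere, Krt8 and Cldn6 stand out in D5-LSKCD201- alone, and Vim and Zeb1 are highest in D5-LSKCD201+.

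Among the epithelial adhesion genes, Cdh1 was on in mESC and in D5-LSKCD201- cells and almost off in the other 3 populations. In the order of replicates 1, 2 and 3, Cdh1 was at 55.3, 58.1 and 60.7 FPKM in mESC, 84.0, 47.7 and 85.9 in D5-LSKCD201- cells, 0.878, 0.882 and 0.518 in D5-LSKCD201+ cells, 0.218, 0.676 and 0.492 in FL-LSKCD201+ and 0, 0.103 and 0.126 in BM-LSKCD201+. The mESC and D5-LSKCD201- libraries overlapped, because replicate 2 of D5-LSKCD201- lay below all 3 mESC libraries and the other two lay above them. Epcam was at 77.6, 69.8 and 73.8 FPKM in mESC, 103, 126 and 104 in D5-LSKCD201- cells, 1.38, 1.33 and 1.42 in D5-LSKCD201+ cells, 2.88, 2.5 and 2.33 in FL-LSKCD201+ and 2.18, 2.55 and 2.14 in BM-LSKCD201+. Its order was D5-LSKCD201-, mESC, then FL-LSKCD201+ and BM-LSKCD201+, which overlapped, and last D5-LSKCD201+, without overlap between the other neighbours. In these bulk libraries a lower level can mean fewer cells that carry the RNA or less RNA in each cell, and the data cannot tell these apart.

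Cldn6 and the keratins followed another course, with their maximum in D5-LSKCD201- and not in mESC. Cldn6 was at 5.87, 5.09 and 5.80 FPKM in mESC, 179, 214 and 187 in D5-LSKCD201- cells, 2.53, 2.63 and 2.41 in D5-LSKCD201+ cells, 0.0711, 0.0698 and 0.181 in FL-LSKCD201+ and 0, 0.204 and 0.232 in BM-LSKCD201+. The last 2 groups overlapped and every other pair of neighbours was apart. Krt8 was at 7.0, 6.49 and 7.37 FPKM in mESC, 584, 734 and 599 in D5-LSKCD201- cells, 10.5, 12.4 and 11.9 in D5-LSKCD201+ cells, 4.30, 5.74 and 4.97 in FL-LSKCD201+ and 3.85, 8.27 and 7.23 in BM-LSKCD201+. Krt8 in D5-LSKCD201- was thus more than an order of magnitude above every other sorted library, D5-LSKCD201+ came next, mESC lay above FL-LSKCD201+ without overlap, and BM-LSKCD201+ could not be placed because its libraries spanned those of both. Krt8-ps, a processed copy of Krt8 with its own row, reached a mean of 3.44 FPKM in D5-LSKCD201-, so few reads had been assigned to it.

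Krt18, the partner of Krt8, was at 6.08, 4.54 and 5.11 FPKM in mESC, 304, 366 and 303 in D5-LSKCD201- cells, 5.07, 6.48 and 6.53 in D5-LSKCD201+ cells, 31.7, 43.7 and 42.4 in FL-LSKCD201+ and 156, 166 and 159 in BM-LSKCD201+. Its order was D5-LSKCD201-, BM-LSKCD201+, FL-LSKCD201+ and then D5-LSKCD201+ with mESC, which overlapped. The keratin pair therefore parted in the tissue-derived cells. Krt18 divided by Krt8 was 0.868, 0.699 and 0.693 in the 3 mESC libraries, 0.521, 0.499 and 0.506 in D5-LSKCD201- cells and 0.483, 0.523 and 0.548 in D5-LSKCD201+, but 7.38, 7.62 and 8.53 in FL-LSKCD201+ and 40.6, 20.0 and 22.0 in BM-LSKCD201+. All 9 pluripotent and culture-derived libraries had less Krt18 than Krt8, and all 6 libraries from tissue had at least 7 times more Krt18 than Krt8. This ratio was computed after the values had been seen and was given no test.

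**Figure D2:**
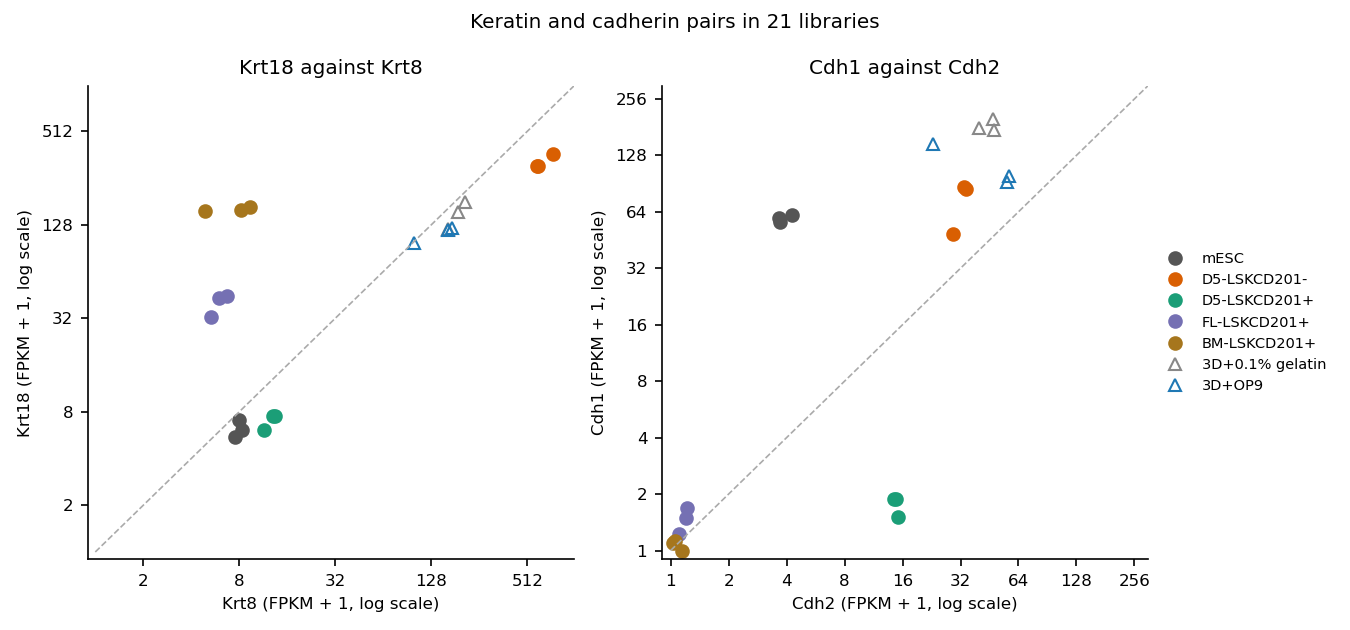
Krt18 against Krt8 (left) and Cdh1 against Cdh2 (right), FPKM plus 1 on log scales, in 21 libraries. Filled circles are the sorted-cell libraries and open triangles are the coculture libraries, whose table was normalized separately, and the dashed line marks equal levels. FL-LSKCD201+ and BM-LSKCD201+ lie far above the keratin line, mESC and D5-LSKCD201- lie above the cadherin line, and D5-LSKCD201+ lies far below the cadherin line.

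The mesenchymal filament gene Vim was present in every library and highest in D5-LSKCD201+. It was at 68.6, 68.5 and 74.3 FPKM in mESC, 184, 182 and 179 in D5-LSKCD201- cells, 890.0, 899 and 867 in D5-LSKCD201+ cells, 124, 178 and 172 in FL-LSKCD201+ and 167, 169 and 156 in BM-LSKCD201+. All D5-LSKCD201+ libraries were above all others, mESC were below all others, and FL-LSKCD201+ and BM-LSKCD201+ overlapped just under D5-LSKCD201-. Cdh2 was at 2.70, 2.64 and 3.25 FPKM in mESC, 33.3, 28.1 and 32.3 in D5-LSKCD201- cells, 13.5, 13.9 and 14.2 in D5-LSKCD201+ cells, 0.102, 0.216 and 0.207 in FL-LSKCD201+ and 0.147, 0.0232 and 0.0485 in BM-LSKCD201+. Cdh2 was highest in D5-LSKCD201-, the same population that had the most Krt8 and Epcam, and the tissue-derived cells had under 1 FPKM in every library.

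The cadherin pair can be read as a balance within a library. Cdh1 divided by Cdh2 was 20.5, 22.0 and 18.7 in mESC, 2.53, 1.70 and 2.66 in D5-LSKCD201- cells and 0.0651, 0.0636 and 0.0365 in D5-LSKCD201+. D5-LSKCD201- cells thus carried both cadherins, with more Cdh1 than Cdh2 in all 3 libraries, and D5-LSKCD201+ cells carried Cdh2 with little Cdh1. In FL-LSKCD201+ and BM-LSKCD201+ both genes were under 1 FPKM and the ratio was not read. The same bulk signal would come from cells that carry both cadherins and from a mixture of cells with either.

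Of the repressors, Snai1 was at 1.38, 1.35 and 1.93 FPKM in mESC, 14.3, 10.2 and 13.3 in D5-LSKCD201- cells, 15, 14.7 and 14.5 in D5-LSKCD201+ cells, 1.72, 0.381 and 0.251 in FL-LSKCD201+ and 1.44, 0.826 and 0.926 in BM-LSKCD201+. Both day 5 populations were above all other libraries and close to each other, and replicate 1 of FL-LSKCD201+ stood above the other 2 of its group and inside the range of mESC. Zeb1 was at 2.75, 2.98 and 3.14 FPKM in mESC, 2.42, 2.02 and 2.71 in D5-LSKCD201- cells, 15.1, 15.2 and 14.6 in D5-LSKCD201+ cells, 4.94, 6.01 and 5.51 in FL-LSKCD201+ and 13.0, 8.94 and 7.66 in BM-LSKCD201+. Its order was D5-LSKCD201+, BM-LSKCD201+, FL-LSKCD201+, mESC and D5-LSKCD201-, with no overlap between neighbours. Zeb2 was at 2.11, 2.74 and 2.57 FPKM in mESC, 3.09, 1.95 and 2.85 in D5-LSKCD201- cells, 9.08, 10.1 and 9.46 in D5-LSKCD201+ cells, 12.2, 13.8 and 11.6 in FL-LSKCD201+ and 7.03, 8.72 and 7.97 in BM-LSKCD201+. Zeb2 was highest in FL-LSKCD201+, without overlap with D5-LSKCD201+, the next group, and its levels in mESC and D5-LSKCD201- overlapped.

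The next question was how the D5-LSKCD201+ cells differed in these genes from mESC of the same strain. The 2 main adhesion genes of pluripotent cells, Cdh1 and Epcam, fell, and all 5 mesenchymal genes rose. Each pair of groups was compared by limma on log2(FPKM + 1), and a gene was called where the adjusted p was below 0.05 and the log2 fold change was 1 or more in either direction. The mean of Cdh1 was 76.4 times lower in D5-LSKCD201+ (58.0 ± 2.71 FPKM in mESC, 0.759 ± 0.209 in D5-LSKCD201+, SD, n = 3), a log2 difference of −5.07 (SE 0.09, adjusted p = 1.61e-10). Epcam was 53.5 times lower, with a log2 difference of −4.97 (SE 0.06, adjusted p = 1.48e-11). Vim rose 12.6-fold (70.5 ± 3.33 to 885 ± 16.4 FPKM), a log2 difference of 3.63 (SE 0.04, adjusted p = 9.94e-12). Snai1 rose by 2.63, Zeb1 by 2.01, Cdh2 by 1.95 and Zeb2 by 1.61 on the log2 scale, with adjusted p between 5.79e-09 and 1.78e-07. Krt8, Krt18 and Cldn6 were not called, at log2 differences of 0.66, 0.17 and −0.90. Cldn6 passed under a pseudocount of 0.1 (−1.11) and under quantile normalization (−1.02). In all, 7 of the 10 genes were called, where 37.6% of the 13441 genes tested were called, 19.5% as higher and 18.1% as lower. For 9 of the 10 genes the libraries of the groups did not overlap, against 86.1% of all genes tested.

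**Figure D3:**
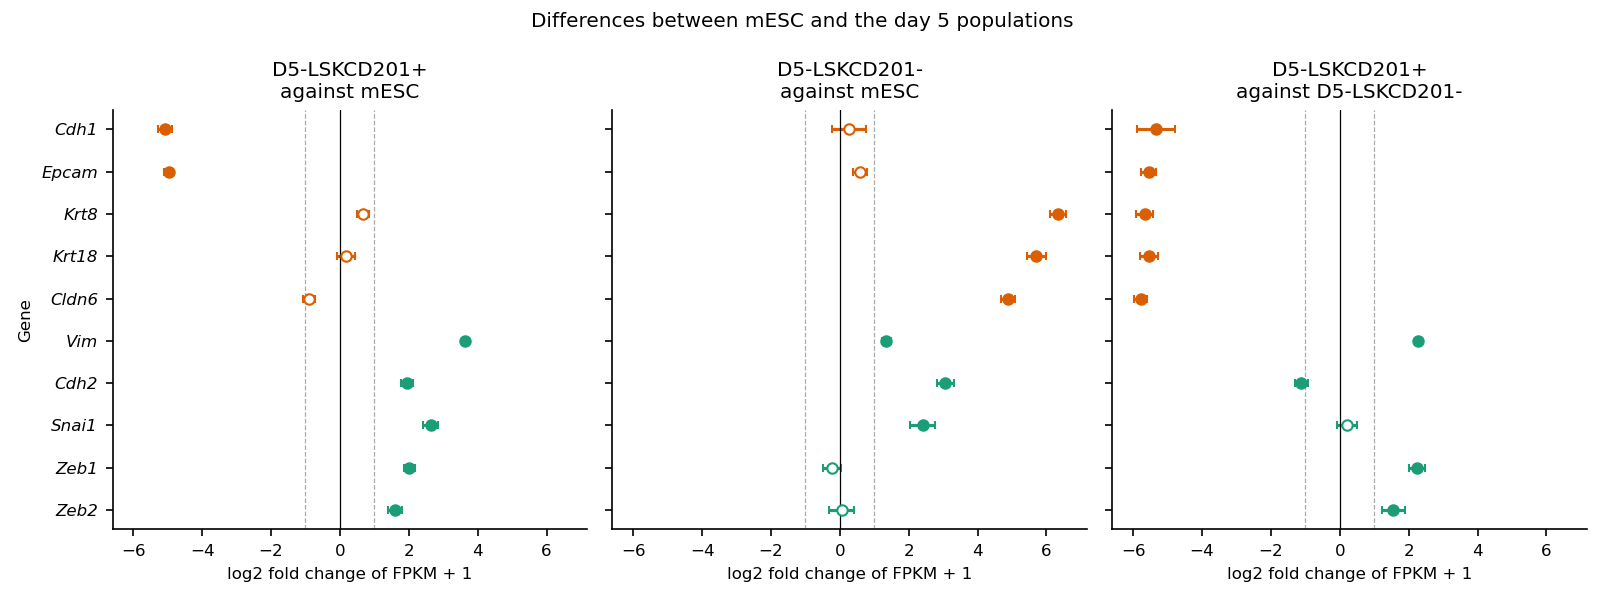
Log2 fold changes of FPKM + 1 with 95% confidence intervals from limma for the epithelial (orange) and mesenchymal (green) genes, with 3 libraries in each group. Filled points were called, open points were not, and dashed lines mark a log2 fold change of 1 in either direction. Cdh1 and Epcam lie near −5 in the left and right panels and near 0 in the middle panel, where Krt8, Krt18 and Cldn6 lie near 5 or above.

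The pathway genes written down beside the 10 were read in the same fit, in which 19.5% of all genes were called as higher and 18.1% as lower. Of 35 further epithelial junction and keratin genes, 28 were tested, 20 were lower and 4 higher in D5-LSKCD201+ than in mESC, and the median log2 difference was −1.53 beside −0.07 over all genes. Llgl2, a polarity protein, fell by 4.08 and Spint1, a protease inhibitor of epithelia, fell by 4.02 (log2), whereas F11r, the junctional adhesion molecule A that endothelium and platelets carry as well, rose by 3.37 and Krt19 by 2.23. Of 10 epithelial regulators 8 were tested and called as lower, Klf5 (−4.64) and Tfap2c (−3.50) the most, both of which are also expressed in pluripotent cells. Several, such as Esrp1 (1.42 FPKM in mESC and 0.0754 in D5-LSKCD201+), passed the filter through mESC alone and so could enter only as lower. Of 23 mesenchymal matrix and structural genes, 21 were tested, 18 were higher and 1 lower, with a median of 2.61. S100a4, a calcium-binding protein, rose by 4.52, Sparc, a matrix glycoprotein that endothelial cells also secrete, by 4.2, and Des, the muscle filament desmin, was lower (−2.21). Of 23 mesenchymal regulators 22 were tested and 11 were higher. Genes of these mesenchymal lists that passed the filter through D5-LSKCD201+ alone could enter only as higher. Hmga2, a chromatin protein, rose by 4.51 and Tgfbr2, a receptor for TGF-beta, by 4.23. Of 8 corepressors that Snail and Zeb proteins recruit, 3 were called by limma, all as lower, among them Ctbp2 (−2.87) and Ajuba (−1.92). Calls were made for 37.6% of all genes, so this share is not particular to the corepressors. An unadjusted p under 0.05 was found for 7 of the 8, as for 11560 of all 13441 genes. Of 10 catenins and nectins 8 were tested and 2 were higher (1 under quantile normalization), Ctnnd1 (1.27) and Vcl (1.05).

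Markers of other cells moved with these genes. The endothelial sum was 31.6 to 34.3 FPKM in mESC and 1665 to 1697 in D5-LSKCD201+, and the sum over 12 stromal genes was 8.59 to 9.92 in mESC and 98.2 to 104 in D5-LSKCD201+. Of these 12 stromal genes 6 are also in the pathway lists or among the 10 genes. In D5-LSKCD201+ 3 of the 12 stromal genes stayed under 1 FPKM in every library, and Pdgfra, which defines many stromal cells, was at a mean of 0.676 FPKM. The cells had been sorted on c-kit, Sca-1, CD201 and absence of lineage markers, and the part of OP9 or feeder RNA in these values was not tested.

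D5-LSKCD201- cells, from the same cultures and without CD201 on the surface, were then compared with mESC. They had gained Krt8, Krt18, Cldn6, Cdh2, Snai1 and Vim without a called change in Cdh1 or Epcam. Krt8 rose 91.9-fold (6.95 ± 0.443 to 639 ± 82.5 FPKM, SD, n = 3), a log2 difference of 6.32 (SE 0.10, adjusted p = 1.28e-07). Krt18 rose 61.9-fold, with a log2 difference of 5.71 (SE 0.11, adjusted p = 1.88e-07), and Cldn6 rose 34.6-fold, with a log2 difference of 4.88 (SE 0.09, adjusted p = 1.59e-07). Among the mesenchymal genes Cdh2 rose 10.9-fold (log2 difference 3.06, SE 0.10, adjusted p = 1.15e-06), Snai1 8.12-fold (2.41, SE 0.15, adjusted p = 1.64e-05) and Vim 2.58-fold (1.35, SE 0.05, adjusted p = 1.96e-06). Cdh1 differed by 0.27 (95% interval −0.23 to 0.77, adjusted p = 0.312 by limma), Zeb1 by −0.23 (−0.50 to 0.03) and Zeb2 by 0.05 (−0.30 to 0.41). Epcam differed by 0.58 with an adjusted p of 0.00121, below the fold threshold, and was higher in all 3 D5-LSKCD201- libraries than in all mESC libraries. Of the 10 genes 6 were called, each of them as higher, where 14.3% of 13596 genes were called, 10.9% as higher and 3.48% as lower.

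In D5-LSKCD201- genes of both kinds were called as higher in the additional lists as well, where 10.9% of all genes were higher and 3.48% lower. Of 33 tested epithelial junction and keratin genes 18 were higher and 1 lower than in mESC, with a median log2 difference of 1.29 beside 0.05 over all genes, led by Krt19 (5.88) and Cldn7 (3.22), with the desmosome gene Pkp3 lower (−1.47). Several in this list, such as Krt7 (0.0961 FPKM in mESC and 3.99 in D5-LSKCD201-), passed the filter through D5-LSKCD201- alone. They could enter only as higher, as could any such gene of the other lists. Of 9 tested epithelial regulators 2 were higher, Ovol2 (1.82), which represses Zeb genes, and Esrp1 (1.70), a splicing factor of epithelia, and Klf5 was lower (−1.40). In rising order the D5-LSKCD201- libraries had Klf5 at 9.63, 29.4 and 33.3 FPKM, against a mean of 57.7 in mESC, so this fall leaned on 1 library. Of 21 tested mesenchymal matrix and structural genes 16 were higher and 1 lower, led by S100a4 (4.72) and Acta2, smooth muscle actin (4.41), and of 21 tested mesenchymal regulators 7 were higher, led by Foxq1 (3.99) and Hmga2 (3.35). None of 9 tested catenins and nectins was called by limma (6 had an unadjusted p under 0.05, as had 8143 of all 13596 genes). Of 8 corepressors 1 was called by limma, Ctbp2, which was lower (−2.04, SE 0.61, adjusted p = 0.0246). Its SE was the largest among the pathway genes named for this comparison.

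Several marker lists lay above their mESC level in the same libraries. The stromal sum was 8.59 to 9.92 FPKM in mESC and 41.4 to 76.2 in D5-LSKCD201-, with Pdgfra at a mean of 2.61 and 3 of the 12 genes under 1 FPKM, and the endothelial sum was 31.6 to 34.3 in mESC and 76.1 to 82.6 in D5-LSKCD201-. The sum over 12 endoderm genes was 4.49 to 5.75 FPKM in mESC and 212 to 254 in D5-LSKCD201-, with Sox17 at a mean of 98.5, Dab2 at 45.8, Gata4 at 32.6 and Foxa2 at 17.9. The sum over 8 trophoblast genes was 2.34 to 2.75 in mESC and 42.7 to 53.5 in D5-LSKCD201-, of which Eomes made up a mean of 36.7, while Tpbpa was at 0 in every D5-LSKCD201- library and Elf5 at a mean of 0.435. Krt8 and Krt18 are known from both kinds of epithelium. D5-LSKCD201+ cells had an endoderm sum of 323 to 332, mainly Dab2 (146), Sox17 (121) and Gata4 (35.5), and Foxa2 at 0.656. In every D5-LSKCD201+ library 7 of the 12 endoderm genes were under 1 FPKM, against 1 of the 12 in D5-LSKCD201-. Pou5f1, a defining gene of pluripotency, was at a mean of 426 FPKM in mESC and 221 in D5-LSKCD201-. How far these cell types account for the keratin, cadherin and mesenchymal values was not tested.

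Set against each other, the populations with and without CD201 differed in 9 of the 10 genes. All 5 epithelial genes were lower in D5-LSKCD201+, by 5.35 to 5.78 on the log2 scale. Relative to D5-LSKCD201-, the mean of Krt8 was 55.0 times lower, that of Krt18 53.8, of Cldn6 76.7, of Epcam 80.7 and of Cdh1 95.6 times lower. Their log2 differences were −5.66 (SE 0.10, adjusted p = 5.15e-08) for Krt8, −5.53 (SE 0.11, adjusted p = 7.48e-08) for Krt18, −5.78 (SE 0.08, adjusted p = 3.34e-08) for Cldn6, −5.55 (SE 0.09, adjusted p = 4.50e-08) for Epcam and −5.35 (SE 0.23, adjusted p = 1.52e-06) for Cdh1. The mesenchymal genes split. Vim (2.28, SE 0.04, adjusted p = 6.63e-08), Zeb1 (2.25, SE 0.10, adjusted p = 1.83e-06) and Zeb2 (1.55, SE 0.14, adjusted p = 5.29e-05) were higher in D5-LSKCD201+, Cdh2 was lower there (−1.11, SE 0.08, adjusted p = 1.69e-05), and Snai1 was not called (0.22, SE 0.12, adjusted p = 0.145, 95% interval −0.07 to 0.51). All 10 genes were without overlap between the groups, against 73.6% of the 13691 genes tested, and 24.7% of those were called, 10.8% as higher and 13.9% as lower. For 8 of the 10 genes the D5-LSKCD201- and mESC libraries had not overlapped, against 64.4% of all genes tested. The comparisons of mESC and both day 5 populations share their libraries in pairs, so their counts are not independent of each other. Marker sums moved with these genes. Pluripotency genes summed to 3481 to 3909 FPKM without CD201 and 22.7 to 30.4 with it, endothelial genes to 76.1 to 82.6 and 1665 to 1697, and trophoblast genes to 42.7 to 53.5 and 14.8 to 16.1. Stromal genes summed to 41.4 to 76.2 FPKM without CD201 and 98.2 to 104 with it. In the same order, endoderm genes summed to 212 to 254 and 323 to 332, with 1 and 7 of the 12 under 1 FPKM in every library. Hematopoietic genes summed to 26.5 to 29.3 without CD201 and 151 to 158 with it. The part of these marker genes and their cell types in the values of the 10 genes was not tested. Every call among the 10 was made again when any single library was left out, replicate 2 of D5-LSKCD201- included.

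Among the other epithelial junction and keratin genes, 28 of 33 tested were lower with CD201 than without it and 2 were higher, with a median of −2.27 beside −0.12 over all genes. Elf3, an epithelial transcription factor, was lower (log2 difference −4.97), as was Cldn7 (−4.82), and F11r (1.63) and occludin, Ocln (1.15), were higher. The 9 tested epithelial regulators were called as lower (8 of them under quantile normalization), among them Tfap2c (−4.36) and Grhl3 (−3.84), members of families that activate Cdh1 and other junction genes. Grhl3, at 16.6 FPKM in D5-LSKCD201- and 0.234 with CD201, is 1 of several in this list that passed the filter through D5-LSKCD201- alone and could enter only as lower. The mesenchymal lists were divided, as the 5 mesenchymal genes were. Of 21 matrix and structural genes 7 were higher, led by Mmp2 (2.93) and Itga5 (2.20), and 3 were lower, led by the smooth muscle genes Tagln (−1.88) and Acta2 (−1.80). Of 23 mesenchymal regulators 5 were higher, led by Tgfbr2 (3.55) and Foxc2 (2.07), and 4 lower, led by Foxq1 (−3.77) and Tgfb2 (−2.12). Nectin2 was higher (1.33) and the corepressor Ajuba lower (−1.31), each the single call in its list. Over all genes in this comparison 10.8% were called as higher and 13.9% as lower.

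D5-LSKCD201+ cells were next set beside LSKCD201+ cells that had formed in the animal. In every library of both tissues Cdh1 was under 1 FPKM and Epcam was low, at 2.14 to 2.88 FPKM. Genes of both kinds were called between the tissue-derived and the culture-derived cells, 4 mesenchymal and 3 epithelial against FL-LSKCD201+ and 3 mesenchymal and 2 epithelial against BM-LSKCD201+. Against FL-LSKCD201+, Cdh2 was 79.2 times higher in D5-LSKCD201+ (log2 difference 3.66, SE 0.08, adjusted p = 1.10e-07), Snai1 18.8 times (3.23, SE 0.28, adjusted p = 5.17e-05), Vim 5.59 times (2.49, SE 0.15, adjusted p = 6.70e-06) and Zeb1 2.73 times (1.3, SE 0.09, adjusted p = 1.31e-05). Cldn6 (1.67, SE 0.08, adjusted p = 3.41e-06) and Krt8 (1.07, SE 0.12, adjusted p = 1.51e-04) were higher as well, and Krt18 was 6.52 times lower (−2.51, SE 0.15, adjusted p = 7.65e-06). The ratio of 79.2 for Cdh2 rests on FL-LSKCD201+ values of 0.102 to 0.216 FPKM, and its log2 difference is smaller because of the pseudocount of 1. Cdh2 and Cldn6 passed the filter through D5-LSKCD201+ alone and could enter only as higher. Zeb2 and Epcam, at −0.36 and −0.58, stayed below the fold threshold, and Cdh1 differed by 0.27 (adjusted p = 0.143, limma). Thus 7 of 10 genes were called, where 34.7% of 13627 genes were, 15.1% as higher and 19.6% as lower. The groups did not overlap for 9 of the 10 genes, against 76.6% of all genes tested. Without replicate 1 of FL-LSKCD201+, Krt8 lay just under the fold threshold, at 0.99, and the mean of Snai1 was 46.6 times higher in D5-LSKCD201+ instead of 18.8 times.

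Against BM-LSKCD201+, 9 genes passed the filter of a mean of at least 0.5 FPKM, Cdh1 being under it over the 6 libraries. Cdh2 (log2 difference 3.79, SE 0.09, adjusted p = 1.57e-08), Snai1 (2.94, SE 0.12, adjusted p = 3.14e-07), Vim (2.43, SE 0.05, adjusted p = 9.69e-09) and Cldn6 (1.63, SE 0.11, adjusted p = 4.11e-06) were higher in D5-LSKCD201+, and Krt18 was 26.6 times lower (−4.53, SE 0.09, adjusted p = 9.46e-09). Cdh2 and Cldn6 again passed the filter through D5-LSKCD201+ alone and could enter only as higher. Krt8, Zeb1, Zeb2 and Epcam lay at 0.81, 0.59, 0.25 and −0.47, below the fold threshold, and Krt8 passed it under quantile normalization (1.11). Of the 9 genes 5 were called, where 44.7% of 13775 genes were, 17.5% as higher and 27.2% as lower. None of the 9 genes overlapped between the groups, against 85.3% of all genes tested. Both comparisons use the same D5-LSKCD201+ libraries. Strain, culture and tissue of origin change together between these groups and cannot be told apart.

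**Figure D4:**
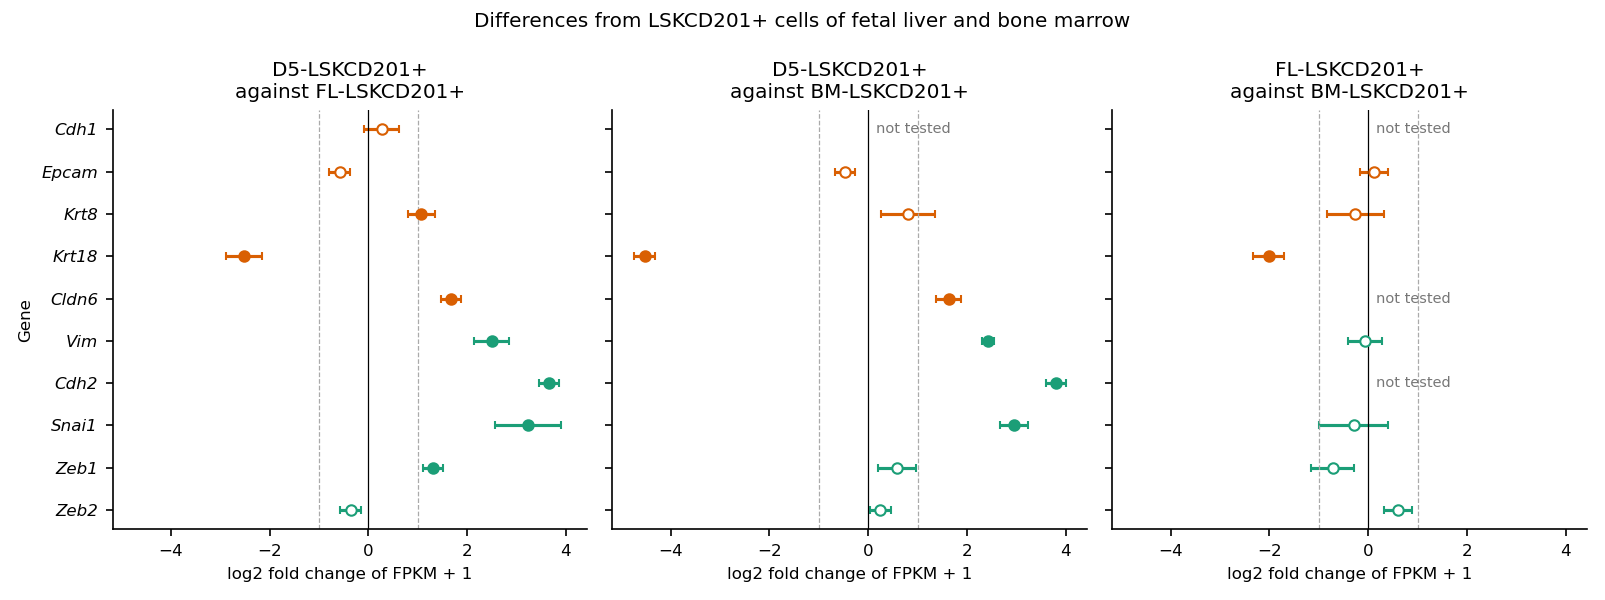
Log2 fold changes of FPKM + 1 with 95% confidence intervals from limma between LSKCD201+ cells of different origin, for the epithelial (orange) and mesenchymal (green) genes, with 3 libraries in each group. Filled points were called, open points were not, and genes with a mean under 0.5 FPKM over the 6 libraries were not tested. Krt18 is the single gene called in every panel, and Cdh2, Snai1, Vim and Cldn6 are called in both panels with D5-LSKCD201+.

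Most tested genes of the matrix list were called as higher in the culture-derived cells against either tissue. Of 21 tested mesenchymal matrix and structural genes 17 were higher and 1 lower against FL-LSKCD201+, and 18 were higher and 1 lower against BM-LSKCD201+, with medians of 2.78 and 3.01 beside −0.16 and −0.23 over all genes. Between FL-LSKCD201+ and BM-LSKCD201+ only 12 genes of this list passed the same filter. Genes that passed through D5-LSKCD201+ alone could enter only as higher, so these counts and medians are descriptions. Sparc was higher by 7.83 and 9.37, and the gene that was lower in both was Cd44 (−2.19 and −2.11), the hyaluronan receptor of blood cells. Of 7 tested catenins and nectins 6 were higher in each comparison, with Nectin2 at 3.91 and 4.50 and alpha-catenin, Ctnna1, at 2.40 and 2.45. Epithelial junction and keratin genes went both ways, with 5 of 22 higher and 6 lower against FL-LSKCD201+ and 7 of 22 higher and 11 lower against BM-LSKCD201+. Pkp2 was higher (3.38 and 3.17) and Pkp3 lower (−1.97 and −4.76) in both. Of 20 tested mesenchymal regulators 10 and 11 were higher, Foxc2 among them (2.96 and 2.80), and 1 was lower against BM-LSKCD201+, Smad3 (−1.49), which carries TGF-beta signals. Only 10 genes of this list passed the filter between the tissues, so the same limit holds. Of 8 corepressors Ajuba was higher (3.29 and 3.60) and Rcor1 lower (−1.95 and −1.31). Over all genes 15.1% were higher and 19.6% lower against FL-LSKCD201+, and 17.5% higher and 27.2% lower against BM-LSKCD201+. The sum over the 12 stromal genes moved with the matrix list, at 98.2 to 104 FPKM in D5-LSKCD201+, 12.8 to 15.9 in FL-LSKCD201+ and 7.06 to 7.89 in BM-LSKCD201+, where 10 of the 12 were under 1 FPKM in each tissue group, and its part in these values was not tested. Since 6 of the 12 are also in the pathway lists or among the 10 genes, the sum and the lists are not independent. The endothelial sum was 1665 to 1697 in D5-LSKCD201+, 179 to 229 in FL-LSKCD201+ and 187 to 198 in BM-LSKCD201+, and the hematopoietic sum was 151 to 158, 584 to 669.8 and 884 to 899 in the same order. Their part was not tested either.

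Between FL-LSKCD201+ and BM-LSKCD201+ cells, Krt18 was the single called gene of the 10. It was 4.08 times lower in FL-LSKCD201+ (39.3 ± 6.58 FPKM) than in BM-LSKCD201+ (160.4 ± 4.92 FPKM, SD, n = 3), a log2 difference of −2.02 (SE 0.13, adjusted p = 2.58e-05). Only 7 of the 10 genes passed the filter, since Cdh1, Cldn6 and Cdh2 were too low in both groups, and 19.1% of 13503 genes were called, 7.78% as higher and 11.3% as lower. At an unadjusted p under 0.05 there were 3 of the 7. Zeb1 was lower in FL-LSKCD201+ (−0.72, SE 0.19, adjusted p = 0.0139) and Zeb2 higher (0.61, SE 0.12, adjusted p = 0.00389), each with an adjusted p under 0.05 by limma but below the fold threshold and without overlap between the groups. Zeb1 divided by Zeb2 was 0.404, 0.435 and 0.473 in FL-LSKCD201+ and 1.85, 1.02 and 0.960 in BM-LSKCD201+. Vim, Epcam, Krt8 and Snai1 overlapped between the groups, so that 3 of 7 genes did not, against 63.5% of all genes tested. Afp, which fetal hepatocytes express strongly, was at a mean of 239.9 FPKM there and 7.30 in BM-LSKCD201+, and the endoderm sum was 315 in replicate 1 and 528 and 522 in replicates 2 and 3, against 17.8 to 20.7 in BM-LSKCD201+. Krt18 was higher in BM-LSKCD201+ and Afp in FL-LSKCD201+, and within FL-LSKCD201+ replicate 1 was the lowest for both. Both groups had been sorted as LSK cells with CD201, and the part of hepatocyte RNA in these values was not tested.

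Genes whose pattern was most like that of Cdh1 and Zeb2 over the 15 sorted-cell libraries were found by the smallest root mean square difference of centred log2 values among 14457 genes. For Cdh1 they included AU018091 (0.303), Tcl1 (0.350), Nanog (0.373) and Rpl10l (0.377), of which Nanog encodes a transcription factor of pluripotent cells. Nanog was at a mean of 73.9 FPKM in mESC, 74.1 in D5-LSKCD201- cells and 0.425 in D5-LSKCD201+. For Zeb2 they were Micall2 (0.162), RP23-381H23.1 (0.241), Bmp2k (0.245), Pbx2 (0.247) and Ttpal (0.255). These are descriptions of likeness within 15 libraries of 5 groups.

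In the coculture the question was whether OP9 cells changed these genes in total cells on day 5. None of the 10 genes was called by limma, though 7 had an unadjusted p under 0.05, where 339 of 12958 genes (2.62%) were, 273 as higher and 66 as lower, and 2970 genes had an unadjusted p under 0.05. The mean FPKM of each epithelial gene was lower and that of each mesenchymal gene was higher with OP9. The gap was small for Snai1 (49.7 with OP9 against 43.1 with gelatin) and for Cdh2 (44.3 against 43.9). Cdh1 was at 98.5, 91.3 and 146 FPKM in 3D+OP9 and 174, 199 and 178 in 3D+0.1% gelatin. Its log2 difference was −0.74 (SE 0.17, adjusted p = 0.0446), and the groups did not overlap. Zeb1 was at 5.38, 5.55 and 4.02 FPKM in 3D+OP9 and 1.84, 2.03 and 2.31 in 3D+0.1% gelatin, without overlap, and its log2 difference of 0.96 (SE 0.14, adjusted p = 0.00957) lay just below the fold threshold. Both genes would pass on the adjusted p alone.

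**Figure D5:**
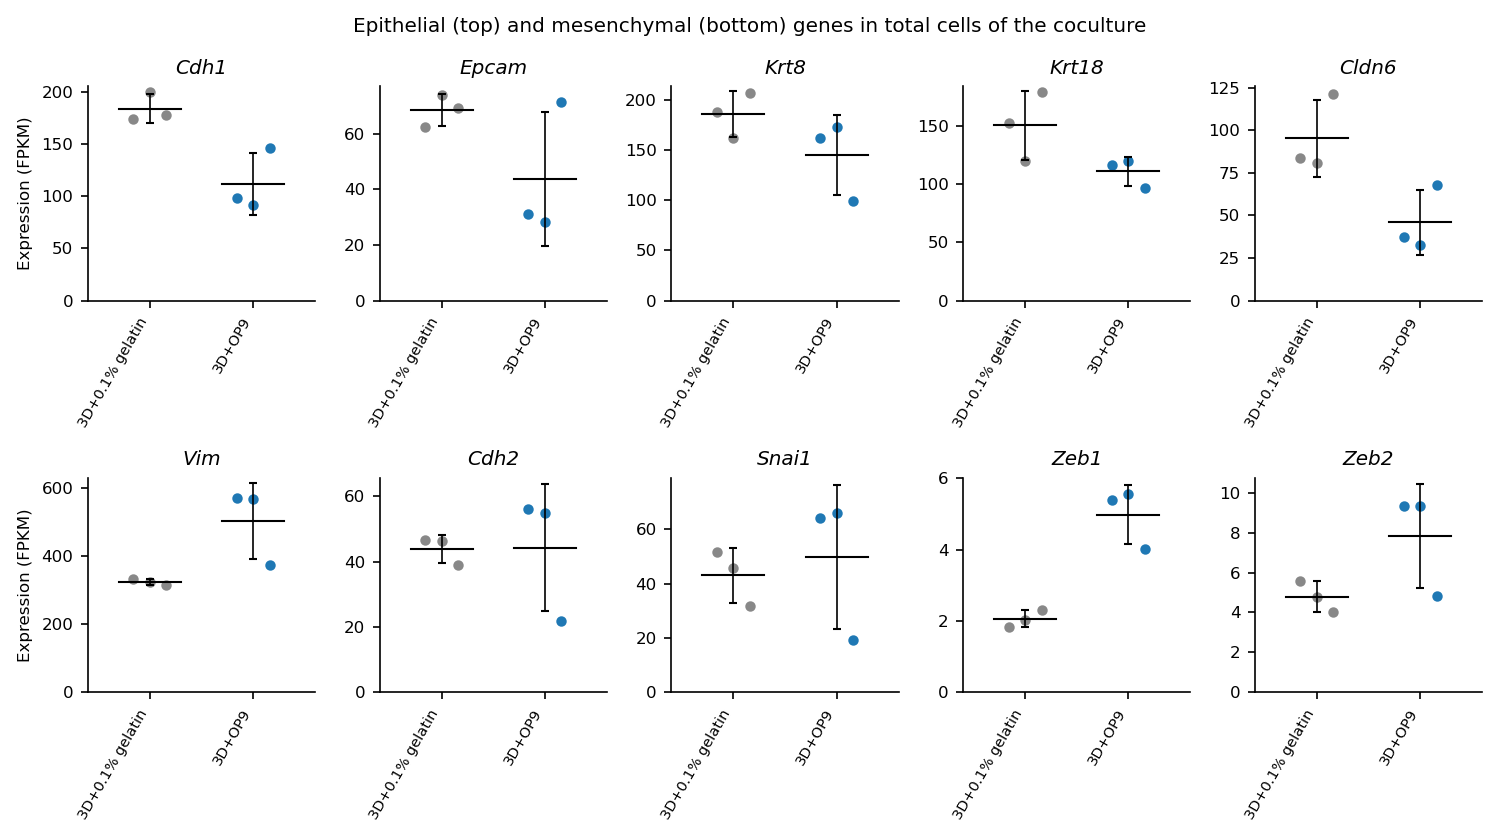
Expression (FPKM, linear axes from 0) of the 5 epithelial genes (top row) and the 5 mesenchymal genes (bottom row) in total cells on day 5 of coculture. Each point is a library, drawn in the order of replicates 1 to 3, the horizontal line is the mean and the bar is the SD of 3 replicates. In 3D+OP9 replicate 3 lies apart from replicates 1 and 2 for most genes, and Cdh1, Cldn6, Vim and Zeb1 do not overlap between the groups.

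Cldn6 was at 37.1, 32.9 and 68.0 FPKM in 3D+OP9 and 83.7, 81.1 and 121 in 3D+0.1% gelatin, and its log2 difference of −1.09 (SE 0.28, adjusted p = 0.0629) passed the fold threshold and missed that on p. Vim was at 569.8, 568 and 375 FPKM in 3D+OP9 and 334, 324 and 316 in 3D+0.1% gelatin, a log2 difference of 0.61 (SE 0.16, adjusted p = 0.0680). Cdh1, Cldn6, Vim and Zeb1 were thus the 4 genes without overlap, where 28.7% of all genes tested had none. Epcam was at 31.1, 28.3 and 71.4 FPKM in 3D+OP9 and 62.6, 74.1 and 69.4 in 3D+0.1% gelatin, and Snai1 was at 64.2, 65.9 and 19.0 in 3D+OP9 and 51.6, 45.8 and 31.8 in 3D+0.1% gelatin. Replicates 1 and 2 of 3D+OP9 lay below all gelatin libraries for Epcam and above them for Snai1, whereas replicate 3 lay within the gelatin range for Epcam and below it for Snai1. Krt8, Krt18, Cdh2 and Zeb2 overlapped as well, with log2 differences of −0.39, −0.42, −0.10 and 0.57. For Cdh2 the direction depended on the scale, since its mean FPKM was slightly higher with OP9 (44.3 against 43.9). Their 95% intervals were, in that order, −0.87 to 0.09, −0.78 to −0.07, −0.87 to 0.67 and 0.02 to 1.13.

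These calls depended on replicate 3 of 3D+OP9. Without it Zeb1 was called as higher (1.08, adjusted p = 0.00195) and Epcam (−1.18, adjusted p = 0.000811) and Cldn6 (−1.40, adjusted p = 0.00303) as lower by limma, 3 of 10 genes, and the number of genes called over the table was 445. Without replicate 3 of 3D+0.1% gelatin, Zeb1 was the single call (1.02). With the replicate numbers as a block, Cldn6 was the single call (−1.09, adjusted p = 0.00478). In replicate 3 of 3D+OP9 the pluripotency genes summed to 1358 FPKM, against 785 and 791 in the other 2 libraries with OP9 and 1168 to 1264 with gelatin. Its endothelial sum, 90.1 FPKM, lay among those of the other 2 (88.1 and 102), all above the 14.8 to 23.5 with gelatin.

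Among the pathway genes, 5 of 35 epithelial junction and keratin genes were lower with OP9 and 0 higher, with a median of −0.47 beside 0.01 over all genes, where 2.11% of genes were higher and 0.509% lower. They were led by the membrane protease St14 (−1.36, SE 0.27, adjusted p = 0.0270) and the desmosome gene Perp (−1.23, SE 0.19, adjusted p = 0.0103). Of 22 tested mesenchymal regulators 2 were higher, Snai2, a close relative of Snai1 (1.13, SE 0.14, adjusted p = 0.00522), and Prrx1 (1.07, SE 0.16, adjusted p = 0.0102), with 1 call in this list under quantile normalization, and of 22 tested matrix and structural genes 3 were higher, led by S100a4 (2.73, SE 0.37, adjusted p = 0.00684) and Col1a2 (1.56, SE 0.17, adjusted p = 0.00313), and Tagln was lower (−2.35, SE 0.23, adjusted p = 0.00230). No epithelial regulator of 8 tested, no catenin or nectin of 9 and no corepressor of 8 was called by limma, and 4, 4 and 3 of them had an unadjusted p under 0.05. Total cells of 3D+OP9 can hold RNA of the OP9 cells themselves, which are mesenchymal. Over 12 stromal genes, of which 6 are in the pathway lists, Prrx1 and Col1a2 among them, the sum was 77.1 to 87.4 FPKM with OP9 and 45.3 to 56.6 with gelatin, and 2 and 5 of the 12 were under 1 FPKM. Their part in the mesenchymal values was not tested.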

How the data were processed

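RNA-seq of 21 libraries, 3 in each of 7 groups, was read from 2 tables of FPKM deposited by the authors, 1 of sorted cells (27968 genes) and 1 of cocultured total cells (22899 genes with values rounded to 2 decimals, 3578 of them left empty). According to the methods and the processing notes of the submitters, libraries were made with an mRNA library kit and sequenced as 150 bp paired reads, aligned with HISAT2 2.0.5 to GRCm38 (the notes also list mm9), assembled with StringTie 1.3.3 and tested with Cuffdiff 1.3.0, whose results were not used. Of the sorted-cell identifiers 27828 were in GENCODE M21. Depth per library is not given in the sources used here. From the spacing of low FPKM values, 1 fragment was worth 0.768 to 1.12 times as much in the other sorted-cell libraries as in replicate 1 of mESC. Precision is given as the SD of 3 libraries.

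Groups and replicate numbers were taken from the sample labels. Nothing in the labels says that replicates came from separate cultures or animals, so p measure the spread between these libraries. Within each of 7 pairs of groups, genes whose mean reached 0.5 FPKM were compared on log2(FPKM + 1) by a two-sided test in limma 3.58.1 under R 4.3.3, with its trend option and Benjamini-Hochberg adjustment over all genes tested. The threshold for a call was an adjusted p of 0.05 together with a log2 fold change of 1 in either direction. A gene that passes the filter through 1 group alone can enter in that direction only, so counts over the lists are descriptions. The log2 scale with a pseudocount of 1 understates the fold change of low genes. An exact permutation test on 3 and 3 libraries cannot go below a two-sided p of 0.1, so none was used. FPKM are not counts, so no count test was run. The tables were normalized separately and no test crossed them. The FL-LSKCD201+ and BM-LSKCD201+ deviations of same-numbered libraries correlated at 0.242, 0.202 and 0.159, all above 0.1, so the numbers were taken as pairs in an alternative fit, the replicate block. The values given for this comparison come from the fit without the block. The source of this pairing is the data alone, since the tissues came from different animals, and differently numbered libraries correlated as highly for replicates 2 and 3 (up to 0.205 and 0.162). The replicate block changed no call among the 10 genes there.

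The 10 genes, the 6 lists of pathway genes (109 genes) and the 6 lists of marker genes were chosen with earlier results of these data known. From each pathway list the text names at most the 2 called genes with the largest rise and the 2 with the largest fall in a comparison. Marker genes are named for summed levels. Some genes that these rules would name are not reported here. The alternatives were a pseudocount of 0.1, a filter raised to 1 FPKM or left out, quantile normalization, limma without the trend, the replicate block, the adjusted p alone, 1 fit over all 5 sorted-cell groups and leaving out each library. Averaging the closest pairs of libraries was added after seeing the data. The code was tested on simulated data. Plots were made in matplotlib 3.10.9 under Python 3.11.15. Promoter bases were taken from RefSeq (GRCm38.p6).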

Additional observations from a re-analysis of the deposited data

How the results depend on the processing

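Of 66 results for a gene in a comparison, 62 kept their direction and 46 also kept their side of the thresholds under every alternative run. The directions that turned were those of differences near 0: Zeb2 in D5-LSKCD201- against mESC (0.05) under quantile normalization (−0.20), without replicate 1 of mESC (−0.02) and with the closest pair averaged (−0.016), and leaving out 1 library gave −0.037 (replicate 1 of D5-LSKCD201-) to 0.20. Vim in FL-LSKCD201+ against BM-LSKCD201+ (−0.07) turned without replicate 1 of FL-LSKCD201+ (0.10). In the coculture Cdh2 (−0.10) ran from −0.32 to 0.33 (without replicate 3 of 3D+OP9) when 1 library was left out. Snai1 (0.04) ran from −0.26 to 0.61 and turned without replicate 1 (−0.24) or 2 (−0.26) of 3D+OP9, without replicate 3 of 3D+0.1% gelatin (−0.16) and with the closest pair averaged (−0.25). The cause was not tested.

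On the adjusted p alone 9 of 9 genes were called in D5-LSKCD201+ against BM-LSKCD201+, 3 of 7 in FL-LSKCD201+ against BM-LSKCD201+ and 2 of 10 in the coculture, since the fold threshold was dropped. Over all genes it then called 11496 in D5-LSKCD201+ against mESC, 7418 in D5-LSKCD201- against mESC, 9349 in D5-LSKCD201+ against D5-LSKCD201-, 9823 and 11486 in D5-LSKCD201+ against FL-LSKCD201+ and BM-LSKCD201+, 7446 in FL-LSKCD201+ against BM-LSKCD201+ and 891 in the coculture. A pseudocount of 0.1 called 1 of 10 genes in the coculture, Zeb1 (1.23), and 531 genes over the table. Leaving out 1 library at a time gave 0 to 3 of the 10 genes in the coculture and 209 to 445 genes over the table, 209 without replicate 2 of 3D+0.1% gelatin, and 1 gene of the 10, Zeb1, without replicate 3 of 3D+0.1% gelatin. With the replicate block, 1 of the 10 genes was called in the coculture and 379 over the table. The same-numbered libraries correlated at 0.182, 0.0724 and 0.291 there, so the numbers were not taken as pairs, nor in the 5 sorted-cell comparisons other than FL-LSKCD201+ against BM-LSKCD201+, and the block changed no other call among the 10 genes. Quantile normalization moved the median over all genes by more than 0.1 in 5 comparisons, the most in D5-LSKCD201+ against BM-LSKCD201+ (−0.23 to −0.03), and changed the D5-LSKCD201- against mESC calls from 1476 higher and 473 lower to 1148 and 723. The 6 calls among the 10 genes were made again in that comparison. The depth of the libraries is unknown, so levels under 1 FPKM, such as Cdh1 in BM-LSKCD201+, were not ranked.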

Other observations

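The wider keratin, cadherin and claudin families were read in the sorted-cell table after the values of the 10 genes had been seen, as levels with no test. Of 41 keratin genes listed, 7 had a mean of at least 3 FPKM in D5-LSKCD201-, 5 in mESC and in BM-LSKCD201+, and 3 in D5-LSKCD201+ and in FL-LSKCD201+. Besides Krt8 and Krt18, D5-LSKCD201- had Krt19 at 88.2 FPKM, and mESC had Krt42 at 18.2 and Krt17 at 15.2, which were lower in D5-LSKCD201-, at 7.79 and 3.96. BM-LSKCD201+ had Krt7 at 5.75 and Krt80 at 3.22, so Krt18 at 160.4 stood without a type II partner of similar level among the keratins listed there.

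Of 22 cadherin genes listed, 5 reached a mean of 3 FPKM in D5-LSKCD201-, 3 in D5-LSKCD201+ and 0 in FL-LSKCD201+ and BM-LSKCD201+. In D5-LSKCD201+ the 3 were Cdh5 at 70.8, Cdh13 at 14.0 and Cdh2 at 13.9 FPKM, so that Cdh5, the cadherin of endothelium, exceeded Cdh2. In D5-LSKCD201- Cdh1 was accompanied by Cdh2 at 31.2, Cdh3, P-cadherin, at 11, Cdh13 at 6.52 and Cdh11 at 4.62. Among the claudins, Cldn6 (193), Cldn7 (54.5) and Cldn4 (28.4) led in D5-LSKCD201-, Cldn5, the claudin of endothelium, was at 429 in D5-LSKCD201+, and Cldn13 was at 53.4 in FL-LSKCD201+ and under 1 FPKM in the other 4 groups.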
